A study of Mus musculus with 7 samples.

Results

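The genes described are the translation initiation and elongation factors of the mouse, defined as protein-coding genes whose symbol begins with Eif or Eef and a digit. Of 27179 genes listed in the deposited counts, 71 carried such a name. The 4 kinases of the Eif2ak series and 2 loci that are not protein-coding were left out by rule, which gave 65 genes. Of these, 60 had enough counts to be tested.

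The RNA came from CD8 dendritic cells of C57BL/6 mice, purified by fluorescence-activated sorting into populations that differ in surface CD103, the integrin αE chain. The CpG CD103 high group (n = 2) was labelled CpG treated, CpG being DNA motifs that engage Toll-like receptor 9. The CD103 low (n = 2) and CD103 negative (n = 3) groups were untreated. The series concerns dendritic cells that respond poorly after a systemic inflammatory syndrome. The age and sex of the mice, the tissue, the CpG dose, the time after it and any pooling of animals are stated in none of the sources used here. No group held CpG-treated cells with low CD103 or untreated cells with high CD103, so the treatment and the CD103 level cannot be told apart. The libraries carry 2 dates: both CpG CD103 high libraries and CD103 negative replicates 1 and 2 are dated 2012, while both CD103 low libraries and CD103 negative replicate 3 are dated 2013. What was done on those dates is not given.

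Protein synthesis begins when the small ribosomal subunit, held open by eIF1 and eIF1A and carrying eIF3, receives the initiator tRNA from eIF2. The eIF4F complex, made of the cap-binding protein eIF4E, the scaffold eIF4G and the helicase eIF4A, recruits the messenger RNA, and eIF5B then joins the large subunit. During elongation eEF1A delivers each aminoacyl tRNA and is recharged by the eEF1B subunits, eEF2 moves the ribosome along, and eIF5A relieves stalling. Cells tune this machinery mainly at the nodes eIF2, which is blocked by stress kinases, eIF4E, which is held by binding proteins, and eEF2, which is inhibited by its kinase. Dendritic cells are known to change protein synthesis when Toll-like receptors are engaged.

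Library totals lay between 4474211 and 4629181 counts, with 13477 to 13978 genes detected in each. Itgae, the gene of CD103, had 1019 and 992 CPM in CpG CD103 high, 346 and 375 CPM in CD103 low, and 61.7, 62.7 and 54.3 CPM in CD103 negative, in the order of the labels (CPM, counts per 1000000 on the scaled library size). All 12 markers of type 1 conventional dendritic cells were detected in every group. Their summed level ran from 23750 to 24080 CPM in CpG CD103 high, from 18510 to 18990 CPM in CD103 low and from 16120 to 17640 CPM in CD103 negative.

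Translation factors took a smaller share of the counted reads in the CpG-treated cells. They made up 1.47% and 1.43% of all counts in CpG CD103 high, against 1.78% and 1.67% in CD103 low and 1.73%, 1.72% and 1.70% in CD103 negative. Both CpG CD103 high libraries lay below all 5 untreated ones, and the 95% Wilson intervals, which cover counting error only, were 1.46% to 1.48% and 1.42% to 1.44% in CpG CD103 high and nowhere below 1.66% in untreated libraries. The elongation factor genes Eef1a1, Eef2 and Eef1b2 together supplied 40.9% and 40.4% of these counts in CpG CD103 high, 49.7% and 46.5% in CD103 low, and 44.4%, 42.1% and 43.1% in CD103 negative. The other 62 genes together held 0.867% and 0.852% of all counts in CpG CD103 high, 0.894% and 0.896% in CD103 low, and 0.960%, 0.997% and 0.966% in CD103 negative. In bulk RNA, fewer cells of a type and less RNA per cell cannot be told apart.

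Per kilobase of transcript, the most abundant of these RNAs averaged over the 7 libraries were Eef1a1 at 1542 CPM, Eef2 at 957 CPM and Eef1b2 at 788 CPM. They were followed by the eIF3 subunits Eif3k at 412 CPM, Eif3f at 323 CPM and Eif3h at 307 CPM, by Eif5a at 306 CPM, and by Eif3g at 189 CPM. Thus 4 of the 8 highest RNAs encode elongation steps and 4 encode eIF3. How reads matching several places were counted is not given, so this order is uncertain for genes with near-identical copies.

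The counts of 5 genes were too low to test. Eef1a2, which encodes the eEF1A form of muscle and neurons, Eif4e1b, a germline relative of the cap-binding protein, and Eif2s3y, the Y-linked copy of the eIF2γ gene, had no count in any of the 7 libraries. A count of 0 allows up to between 0.648 and 0.671 CPM at these depths. The eEF1A methyltransferase gene Eef1akmt3 had at most 0.454 CPM, and Eif4a3l1, a copy of the helicase gene Eif4a3, had at most 0.647 CPM.

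The main comparison asked how the CpG CD103 high cells differed from CD103 negative cells. Of the 60 genes tested, 23 passed an adjusted p of 0.05, or 38.3%, against 26.3% of all 10863 genes tested. Their direction was mostly downward: 20 were lower in CpG CD103 high (33.3%, against 11.8% of all genes) and 3 were higher (5.0%, against 14.5% of all genes). Adjusted p-values throughout are from edgeR's quasi-likelihood test with Benjamini-Hochberg adjustment over all genes tested. The median log2 fold change was -0.21 over the 60 genes and -0.01 over all genes, and 48 of the 60 fitted values (80.0%) were below 0, against 50.6% of all genes. Most changes were small, and of the 60 genes Eef2k alone changed by more than 1 on the log2 scale. The number called was 15 with DESeq2, where 13.4% of all genes were called, and 12 without the date term, where 14.6% were. It was also 12 once CD103 negative replicate 1 was left out (16.1% of all genes) and 13 once CpG CD103 high replicate 2 was (16.6%).

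**Figure D1:**
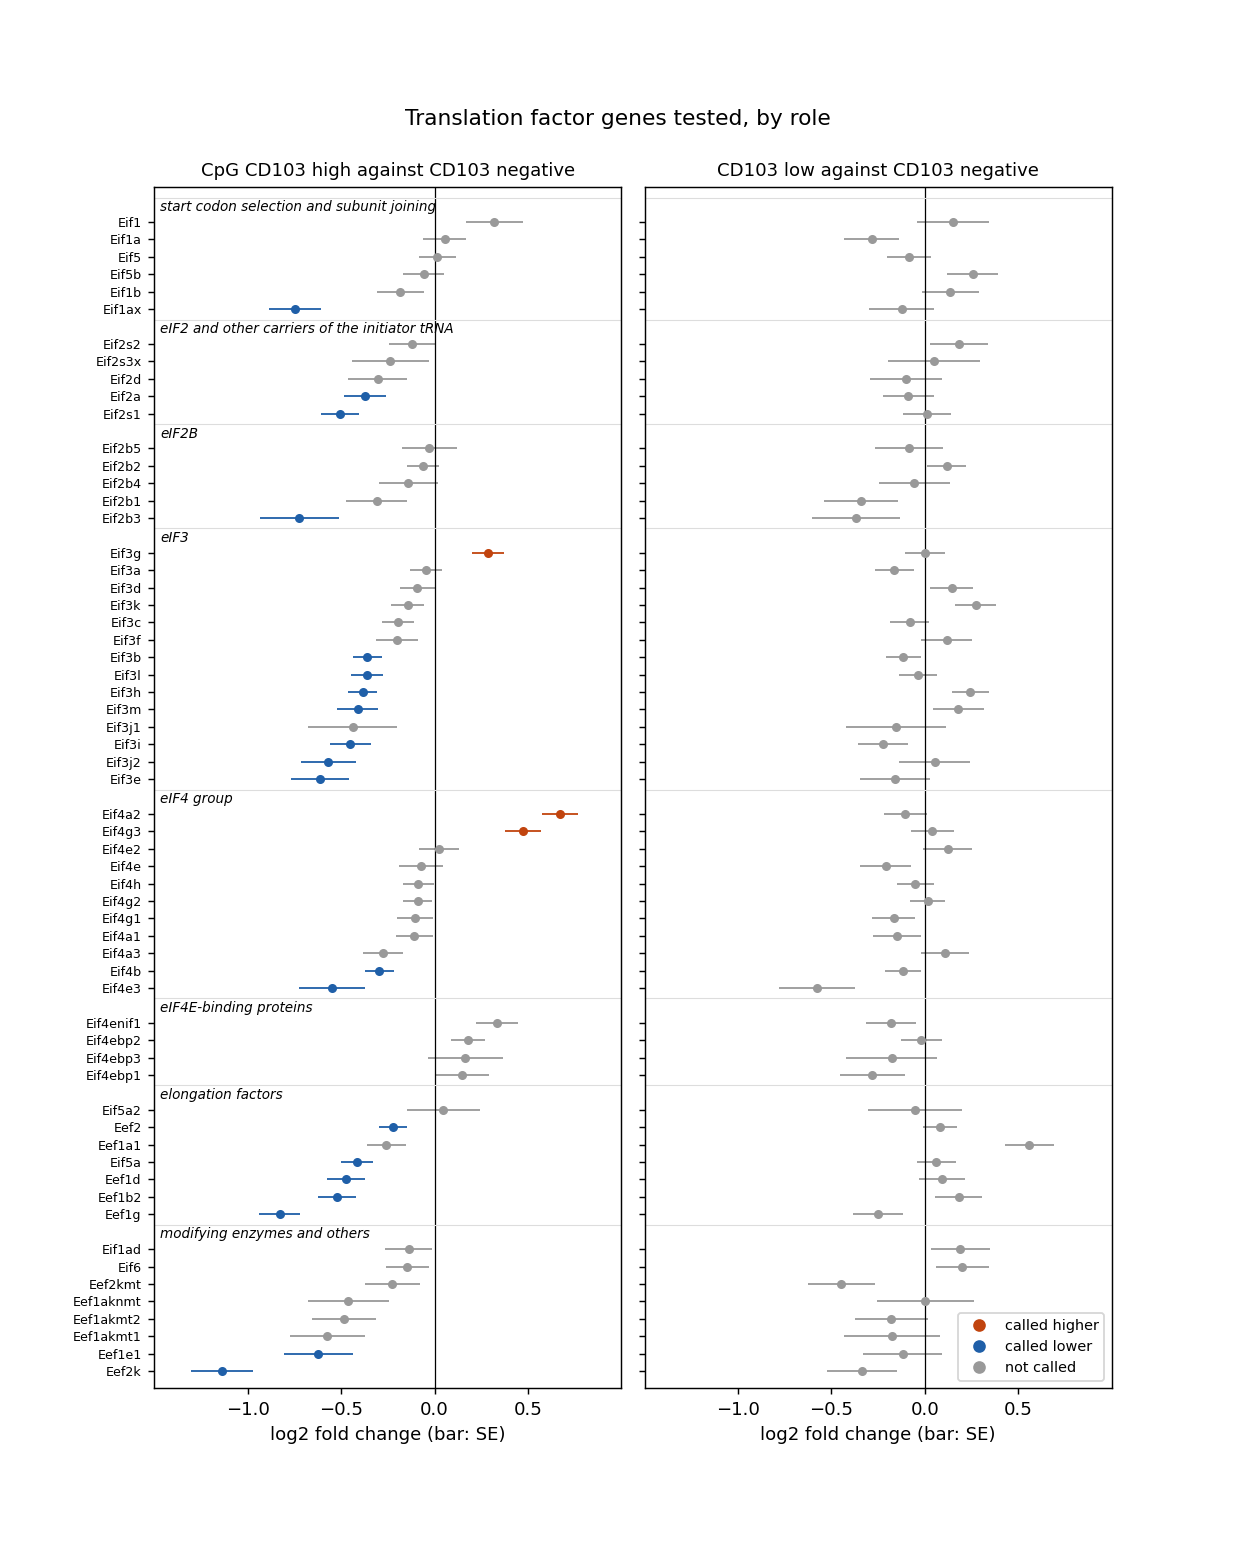
Log2 fold change of each of the 60 tested genes, grouped by role, for CpG CD103 high against CD103 negative (left) and CD103 low against CD103 negative (right), with bars for the standard error and colour for the call at an adjusted p of 0.05. On the left 20 genes are called lower and 3 higher, while on the right no gene is called.

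The same counts were then ordered library by library without the date term, which is no separate test. Of the 5 untreated libraries, 3 are of the later date. In 24 of the 60 genes (40.0%) both CpG CD103 high libraries lay below all 5 untreated ones, as did 17.6% of all genes. In 3 genes (5.0%) they lay above all 5, against 16.3% of all genes. Of the 20 genes called lower 15 showed this separation, and all 3 called higher did.

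**Figure D2:**
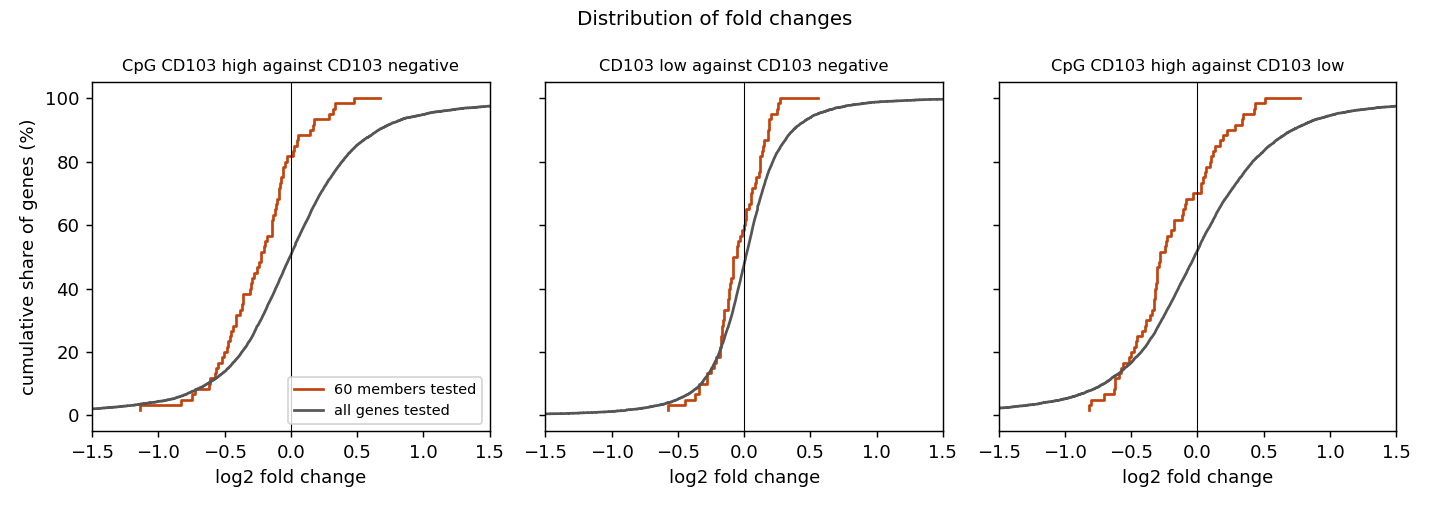
Cumulative share of genes, in percent, by log2 fold change for the 60 translation factors tested (orange) and all 10863 genes tested (grey) in the 3 comparisons, with the farthest genes outside the axis. The orange curve lies left of the grey curve around 0 in both comparisons of CpG CD103 high, with medians of -0.21 and -0.26 against -0.01 and -0.02, and runs close to it for CD103 low against CD103 negative, with medians of -0.05 and 0.01.

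Several other features moved with this contrast. Over all genes the median log2 fold change was -0.13 for transcripts of up to 2099 bases, -0.01 for 2100 to 3702 bases and 0.11 for longer ones, and the translation factors in those classes had medians of -0.28 (27 genes), -0.23 (21 genes) and -0.05 (12 genes), each below its class. With a correction for transcript length and GC content, added after the data were seen, 17 of the genes were called, 3 higher and 14 lower, with a median of -0.185. That fit called 23.8% of all genes. Markers of some other cell types also differed. The 5 B-cell markers used here summed to between 11.8 and 13.2 CPM in CpG CD103 high, with Cd79a at 0, against 67.3 to 70.8 CPM in CD103 low and 76.5 to 93.8 CPM in CD103 negative, with Pax5 at 0. The 6 macrophage markers summed to 18.4 to 29.5 CPM in CpG CD103 high, with Mertk at 0, against 59.5 to 97.2 CPM in CD103 low and 66.0 to 89.6 CPM in CD103 negative. The 5 erythroid markers found summed to 27.3 to 32.3 CPM in CpG CD103 high, 7.59 to 17.3 CPM in CD103 low and 2.80 to 3.62 CPM in CD103 negative, with none at 0. The 6 neutrophil and monocyte markers ran from 39.2 to 63.5 CPM in CpG CD103 high, with none at 0, from 11.7 to 12.3 CPM in CD103 low, with Ly6g at 0, and from 8.56 to 46.6 CPM in CD103 negative, with Retnlg and Ly6g at 0. T-cell markers (6 genes) ran from 0.224 to 0.666 CPM in CpG CD103 high, with Cd3e, Cd3g, Trbc2 and Thy1 at 0, from 2.73 to 32.9 CPM in CD103 low and from 0.647 to 1.70 CPM in CD103 negative. The 5 NK-cell markers ran from 3.59 to 5.10 CPM in CpG CD103 high, from 2.04 to 2.76 CPM in CD103 low and from 0.439 to 2.34 CPM in CD103 negative, with none at 0. Plasmacytoid dendritic cell markers (6 genes, none at 0) overlapped between CpG CD103 high, at 145 to 165 CPM, and CD103 negative, at 161 to 219.9 CPM, with 133 to 148 CPM in CD103 low. Markers of type 2 conventional dendritic cells (6 genes) overlapped as well, at 210.2 to 246 CPM in CpG CD103 high, with Cd209a at 0, 233 to 248 CPM in CD103 low and 224 to 278 CPM in CD103 negative, with Clec4a4 at 0 in the untreated groups. The part of these other cells in the results was not tested.

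The factors that select the start codon and join the subunits had a median of -0.02. Of these 6 genes, 1 was lower (16.7%, against 11.8% of all genes) and none was higher. That gene was Eif1ax, the X-linked gene for eIF1A, which holds the small subunit open for scanning. It had 46.6 and 37.9 CPM in CpG CD103 high, 43.4 and 50.8 CPM in CD103 low, and 67.2, 74.4 and 51.3 CPM in CD103 negative. Thus CpG CD103 high lay below all 3 CD103 negative libraries but overlapped CD103 low. The log2 fold change against CD103 negative was -0.74 (SE 0.14, adjusted p = 0.00394). Eif1a, the second gene for the same protein, had 91.2 and 75.5 CPM in CpG CD103 high, 55.4 and 53.3 CPM in CD103 low, and 81.0, 79.3 and 66.2 CPM in CD103 negative, a log2 fold change of 0.06 (SE 0.12, adjusted p = 0.754). The remaining 4 genes, Eif1 and Eif1b for the start-codon gatekeeper, Eif5 for the GTPase activator of eIF2, and Eif5b for subunit joining, lay between -0.18 and 0.32 with no call. In the fit without the date term Eif1ax was not called (adjusted p = 0.0519).

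The eIF2 group brings the initiator tRNA, and 2 of its 5 tested genes were lower (40.0%, against 11.8% of all genes). The group median was -0.30. Eif2s1, which encodes the α subunit that stress kinases phosphorylate, had 169 and 171 CPM in CpG CD103 high, 122 and 119 CPM in CD103 low, and 219, 263 and 119 CPM in CD103 negative. The CpG CD103 high values thus lay below CD103 negative replicates 1 and 2 of the same date, and above CD103 negative replicate 3 and both CD103 low libraries, all of the later date. With the date in the model the log2 fold change was -0.51 (SE 0.10, adjusted p = 0.00551), and without it -0.24 (adjusted p = 0.587). The date itself carried a larger difference for this gene: CD103 negative replicate 3 against replicates 1 and 2 gave -1.02 (SE 0.13, adjusted p = 0.00520). Eif2a, a factor that can deliver initiator tRNA apart from eIF2, had 93.4 and 87.0 CPM in CpG CD103 high, 88.8 and 93.1 CPM in CD103 low, and 127, 106 and 96.6 CPM in CD103 negative. It fell below all 3 CD103 negative libraries and overlapped CD103 low, with a log2 fold change of -0.37 (SE 0.11, adjusted p = 0.0333), a call lost in 10 of 16 alternative fits with an adjusted p of up to 0.201. These included the fits without CpG CD103 high replicate 1 (adjusted p = 0.0572) or 2 (0.128), CD103 negative replicate 1 (0.201), or CD103 low replicate 1 (0.0654) or 2 (0.0642). The β and γ subunit genes Eif2s2 and Eif2s3x and the tRNA-delivery factor gene Eif2d were not called, at -0.12, -0.24 and -0.30.

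Of the 5 genes of eIF2B, the exchange factor that recharges eIF2, 1 was lower, and the median was -0.14. Eif2b3, for the γ subunit of its catalytic core, had 8.65 and 7.40 CPM in CpG CD103 high, 12.3 and 10.8 CPM in CD103 low, and 12.5, 14.0 and 14.9 CPM in CD103 negative. Neither CpG CD103 high library reached any of the 5 others, and the log2 fold change was -0.72 (SE 0.21, adjusted p = 0.0306). The call was lost without any of the 4 libraries dated 2012, with adjusted p = 0.0547 and 0.130 without CpG CD103 high replicates 1 and 2 and 0.0651 and 0.131 without CD103 negative replicates 1 and 2. DESeq2 did not call Eif2b3 either (adjusted p = 0.275). The other subunit genes ran from -0.31 for Eif2b1 to -0.03 for Eif2b5, the main catalytic subunit, with no call.

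The eIF3 complex, the large scaffold on the small ribosomal subunit, has the most genes of any role and gave the largest number of calls. Of its 14 genes, 7 were lower and 1 was higher, 13 of 14 fitted values were below 0, and the median was -0.36. Eif3e had 72.1 and 56.5 CPM in CpG CD103 high, 86.7 and 89.7 CPM in CD103 low, and 113, 84.1 and 98.5 CPM in CD103 negative. This gene, for a subunit of the octamer core of eIF3, showed no overlap between CpG CD103 high and any untreated library, with a log2 fold change of -0.61 (SE 0.16, adjusted p = 0.0173). Eif3h, for another subunit of the octamer core, had 326 and 319.6 CPM in CpG CD103 high, 412 and 396 CPM in CD103 low, and 422, 421 and 341 CPM in CD103 negative. It too lay below all 5 untreated libraries, with a log2 fold change of -0.39 (SE 0.08, adjusted p = 0.00623).

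A further 4 subunit genes also lay below every untreated library. Eif3i, of the module that also holds eIF3b and eIF3g, had 86.1 and 78.7 CPM in CpG CD103 high, 98.3 and 89.0 CPM in CD103 low, and 121, 105 and 109 CPM in CD103 negative, a log2 fold change of -0.45 (SE 0.11, adjusted p = 0.0146). Eif3b, the core of that module, had 247 and 240.3 CPM in CpG CD103 high, 259 and 256 CPM in CD103 low, and 313, 312 and 279 CPM in CD103 negative (-0.36, SE 0.08, adjusted p = 0.00864). Eif3m had 59.0 and 60.5 CPM in CpG CD103 high, 78.8 and 77.9 CPM in CD103 low, and 85.2, 73.7 and 69.2 CPM in CD103 negative (-0.41, SE 0.11, adjusted p = 0.0221). Eif3m is a subunit of the octamer core, as is Eif3l. Eif3l had 233 and 222 CPM in CpG CD103 high, 269 and 254 CPM in CD103 low, and 285, 300.3 and 268 CPM in CD103 negative (-0.36, SE 0.08, adjusted p = 0.0115).

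Eif3j2, a near-identical copy of the gene for the loosely bound subunit eIF3j, divided the CD103 negative libraries by date. It had 35.7 and 29.6 CPM in CpG CD103 high, 28.1 and 30.6 CPM in CD103 low, and 52.7, 44.2 and 28.3 CPM in CD103 negative, so that CpG CD103 high overlapped the untreated libraries of 2013. Its log2 fold change was -0.57 (SE 0.15, adjusted p = 0.0187) with the date term and -0.35 (adjusted p = 0.354) without it. Its sister Eif3j1 was lower than all 5 untreated libraries, with 9.32 and 6.72 CPM in CpG CD103 high, 10.7 and 12.6 CPM in CD103 low, and 11.4, 10.3 and 13.0 CPM in CD103 negative, yet was not called (-0.44, SE 0.24, adjusted p = 0.202). The sources used here do not state how reads that match both copies were counted, so the split between these genes is uncertain.

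Eif3g went the other way. This RNA-binding subunit had 265 and 246 CPM in CpG CD103 high, 156 and 166 CPM in CD103 low, and 203, 216 and 161 CPM in CD103 negative. The CpG CD103 high values exceeded all 5 others, with a log2 fold change of 0.29 (SE 0.09, adjusted p = 0.0348). The ratio of Eif3g to Eif3i per kilobase, subunits of the same module, was 3.20 and 3.25 in CpG CD103 high, 1.65 and 1.94 in CD103 low, and 1.75, 2.15 and 1.53 in CD103 negative, a pairing chosen after the values were seen and not tested. The 5 uncalled subunit genes other than Eif3j1, namely Eif3a, Eif3c, Eif3d, Eif3f and Eif3k, lay between -0.20 and -0.04. Of these, Eif3k had 284 and 275 CPM in CpG CD103 high, 369 and 376 CPM in CD103 low, and 328, 289 and 308 CPM in CD103 negative, and Eif3f had 419 and 396 CPM in CpG CD103 high, 589 and 545 CPM in CD103 low, and 524, 412 and 523 CPM in CD103 negative.

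The eIF3 calls differed in how they stood up to other fits. With DESeq2 Eif3g (adjusted p = 0.146), Eif3m and Eif3j2 were not called. Without the date term Eif3b (adjusted p = 0.0554), Eif3h (0.116), Eif3m (0.0836), Eif3j2 (0.354) and Eif3g (0.0651) were not called. With the length and GC correction Eif3h (adjusted p = 0.0736), Eif3e (0.138), Eif3m (0.490) and Eif3j2 (0.0628) were not called. Leaving out CpG CD103 high replicate 2 ended the calls of Eif3e (adjusted p = 0.100), Eif3i (0.0736), Eif3j2 (0.101), Eif3l (0.0538), Eif3m (0.0582) and Eif3g (0.0556). Leaving out CD103 negative replicate 1 ended those of Eif3e (0.123), Eif3i (0.0939), Eif3j2 (0.118), Eif3m (0.134) and Eif3g (0.158). Without CpG CD103 high replicate 1 the calls of Eif3m (0.0725) and Eif3g (0.138) ended, without CD103 negative replicate 2 those of Eif3l (0.0619) and Eif3g (0.0650), and without either CD103 low replicate that of Eif3g (0.0662 each).

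The eIF4 group recruits the messenger RNA, and its 11 tested genes had a median of -0.09. Of these, 2 were higher (18.2%, against 14.5% of all genes) and 2 were lower (18.2%, against 11.8%). Eif4a2, which encodes the second form of the helicase eIF4A, showed the largest rise. It had 186 and 205 CPM in CpG CD103 high, 163 and 170.1 CPM in CD103 low, and 116, 129.8 and 179 CPM in CD103 negative. Both CpG CD103 high libraries were above all 5 untreated ones, with CD103 negative replicate 3 the closest. The log2 fold change was 0.67 (SE 0.10, adjusted p = 0.000981) with the date term and 0.47 (adjusted p = 0.0926) without it, and the date contrast for this gene was 0.55 (SE 0.12, adjusted p = 0.0357). Eif4a1, the main form in most proliferating cells, had 132 and 114 CPM in CpG CD103 high, 67.9 and 71.7 CPM in CD103 low, and 132, 134 and 77.5 CPM in CD103 negative. It was not called (-0.11, SE 0.10, adjusted p = 0.450), but its date contrast was -0.78 (SE 0.13, adjusted p = 0.0147).

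The balance of the helicase forms followed the date among untreated cells. Per kilobase, Eif4a2 over Eif4a1 was 0.836 and 1.06 in CpG CD103 high, 1.42 and 1.41 in CD103 low, and 0.519, 0.575 and 1.37 in CD103 negative. Among libraries dated 2012 the CpG CD103 high ratios were the higher ones, while all 3 libraries of 2013 exceeded both. The genes are close in sequence, and how reads matching both were counted is not given.

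Eif4g3, which encodes a second full-length scaffold, had 397 and 441 CPM in CpG CD103 high, 320.4 and 362 CPM in CD103 low, and 302, 302 and 332 CPM in CD103 negative. It was above all 5 untreated libraries, with a log2 fold change of 0.47 (SE 0.09, adjusted p = 0.00518). Eif4g1, the main scaffold, was not called at -0.10 (SE 0.10, adjusted p = 0.448), nor was Eif4g2, a scaffold that does not bind the cap protein, at -0.09. Eif4g3 over Eif4g1 per kilobase was 0.871 and 0.890 in CpG CD103 high, 0.693 and 0.729 in CD103 low, and 0.631, 0.553 and 0.617 in CD103 negative. With the length and GC correction the rise of Eif4g3 was 0.22 and no longer called (adjusted p = 0.101).

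**Figure D3:**
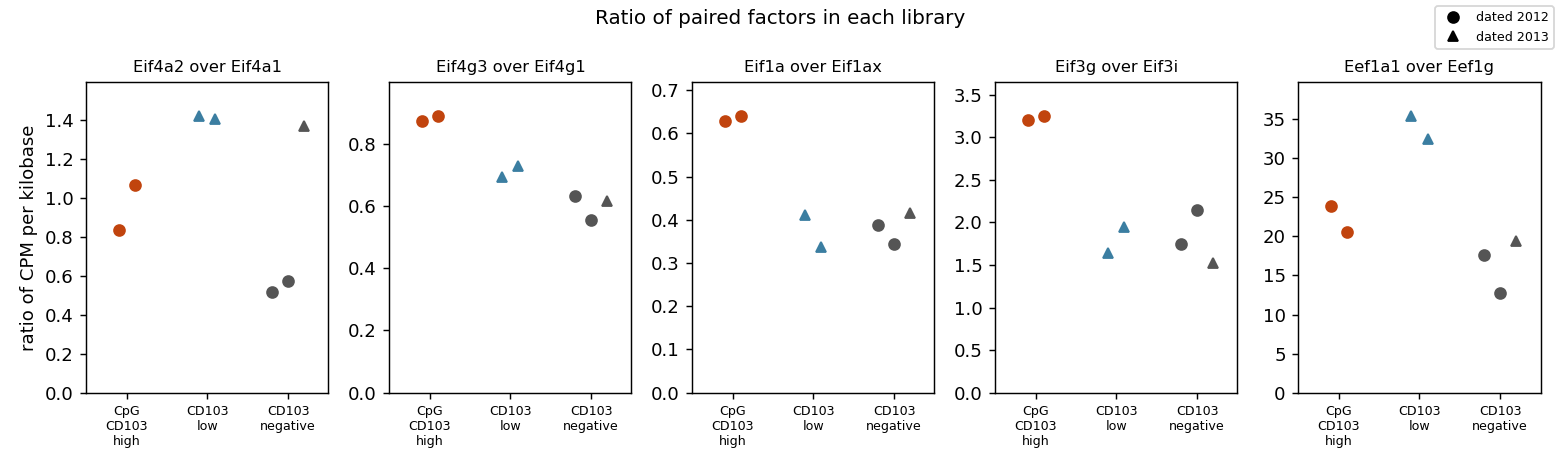
Ratio of CPM per kilobase between paired factors in each library, for CpG CD103 high, CD103 low and CD103 negative, with circles for libraries dated 2012 and triangles for 2013. Eif4g3 over Eif4g1, Eif1a over Eif1ax and Eif3g over Eif3i are highest in both CpG CD103 high libraries, Eif4a2 over Eif4a1 is highest in the 3 libraries of 2013, and Eef1a1 over Eef1g is highest in both CD103 low libraries.

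The lower genes of this group were Eif4b and Eif4e3. Eif4b, the helicase cofactor, had 393 and 380.1 CPM in CpG CD103 high, 442 and 434 CPM in CD103 low, and 476, 473 and 474 CPM in CD103 negative. The 3 groups did not overlap. Neither CD103 low against CD103 negative (-0.12, adjusted p = 0.857) nor CpG CD103 high against CD103 low (-0.18, adjusted p = 0.414) was called. For CpG CD103 high against CD103 negative the log2 fold change was -0.30 (SE 0.08, adjusted p = 0.0204). The call was lost without CpG CD103 high replicate 2 (adjusted p = 0.0678) or CD103 negative replicate 1 (0.0731) or 2 (0.0660), with the log2 fold change between -0.30 and -0.28. Eif4e3, an atypical cap-binding relative, had 14.6 and 16.1 CPM in CpG CD103 high, 17.9 and 15.4 CPM in CD103 low, and 24.6, 20.5 and 24.9 CPM in CD103 negative, so that it overlapped CD103 low. Its log2 fold change of -0.55 (SE 0.17, adjusted p = 0.0427) was not called in any fit that left out 1 of the 6 libraries other than CD103 negative replicate 3, with adjusted p between 0.0518 and 0.208. Nor was Eif4e3 called with no filter, with DESeq2 or with the length and GC correction. The cap-binding gene Eif4e itself had 43.3 and 44.8 CPM in CpG CD103 high, 47.9 and 50.8 CPM in CD103 low, and 45.0, 47.6 and 57.0 CPM in CD103 negative, and was not called (-0.07, SE 0.12, adjusted p = 0.678).

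All 4 genes of eIF4E-binding proteins were on the positive side without a call, with a median of 0.17. Eif4enif1, which encodes the protein that carries eIF4E into the nucleus, had 91.0 and 97.7 CPM in CpG CD103 high, 76.5 and 90.1 CPM in CD103 low, and 76.6, 73.1 and 94.3 CPM in CD103 negative. CpG CD103 high overlapped CD103 negative replicate 3, and at a log2 fold change of 0.33 (SE 0.11) the adjusted p was 0.0501. The translational repressors Eif4ebp1, Eif4ebp2 and Eif4ebp3 had log2 fold changes of 0.15, 0.18 and 0.17 with adjusted p-values between 0.174 and 0.579.

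Elongation factors had the highest proportion of calls among the roles. Of 7 tested genes 5 were lower (71.4%, against 11.8% of all genes) and none was higher, with a median of -0.42. The group included all 3 subunits of eEF1B, the exchange factor that recharges eEF1A. Eef1g, for the structural subunit γ, had 81.6 and 84.9 CPM in CpG CD103 high, 101 and 91.7 CPM in CD103 low, and 135, 161 and 114 CPM in CD103 negative. The 3 groups did not overlap, with CpG CD103 high lowest and CD103 negative highest. Neither CD103 low against CD103 negative (-0.25, adjusted p = 0.764) nor CpG CD103 high against CD103 low (-0.58, adjusted p = 0.0803) was called. The log2 fold change of CpG CD103 high against CD103 negative was -0.83 (SE 0.11, adjusted p = 0.000697), with a call in all 16 alternative fits.

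Eef1b2, for the exchange subunit β, had 1351 and 1115 CPM in CpG CD103 high, 1667 and 1567 CPM in CD103 low, and 1876, 1665 and 1427 CPM in CD103 negative. Both CpG CD103 high libraries lay below all 5 others, with CD103 negative replicate 3 nearest, and the log2 fold change was -0.52 (SE 0.10, adjusted p = 0.00546). Eef1d, for the exchange subunit δ, had 83.0 and 76.9 CPM in CpG CD103 high, 109 and 111 CPM in CD103 low, and 104, 118 and 103 CPM in CD103 negative, again below every untreated library (-0.47, SE 0.10, adjusted p = 0.00812). Eef1b2 was not called in the fit without the date term (adjusted p = 0.0587), nor Eef1d without CD103 negative replicate 2 (adjusted p = 0.0571).

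Eif5a, whose product carries the modified lysine hypusine and relieves ribosomes at difficult sequences, had 546 and 486 CPM in CpG CD103 high, 643 and 645 CPM in CD103 low, and 696, 679.7 and 618 CPM in CD103 negative. It lay below all 5 untreated libraries, with a log2 fold change of -0.41 (SE 0.09, adjusted p = 0.00623), and was called in all 16 alternative fits. Its paralog Eif5a2, at 9.31 to 13.5 CPM over all libraries, was not called (0.05, SE 0.19, adjusted p = 0.879). Eef2, the translocase, had 2587 and 2684 CPM in CpG CD103 high, 3280.0 and 3066 CPM in CD103 low, and 3121, 3027 and 2997 CPM in CD103 negative. The CpG-treated libraries lay below all 5 untreated ones, and the change was the smallest among the calls at -0.22 (SE 0.07, adjusted p = 0.0483). That call was lost in each of the 6 fits without 1 library other than CD103 negative replicate 3, with adjusted p between 0.0533 and 0.168. Eef1a1, the aminoacyl tRNA carrier, had 2230.0 and 2003 CPM in CpG CD103 high, 4079 and 3407 CPM in CD103 low, and 2703, 2361 and 2539 CPM in CD103 negative, and was not called in this contrast (-0.26, SE 0.11, adjusted p = 0.0988).

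**Figure D4:**
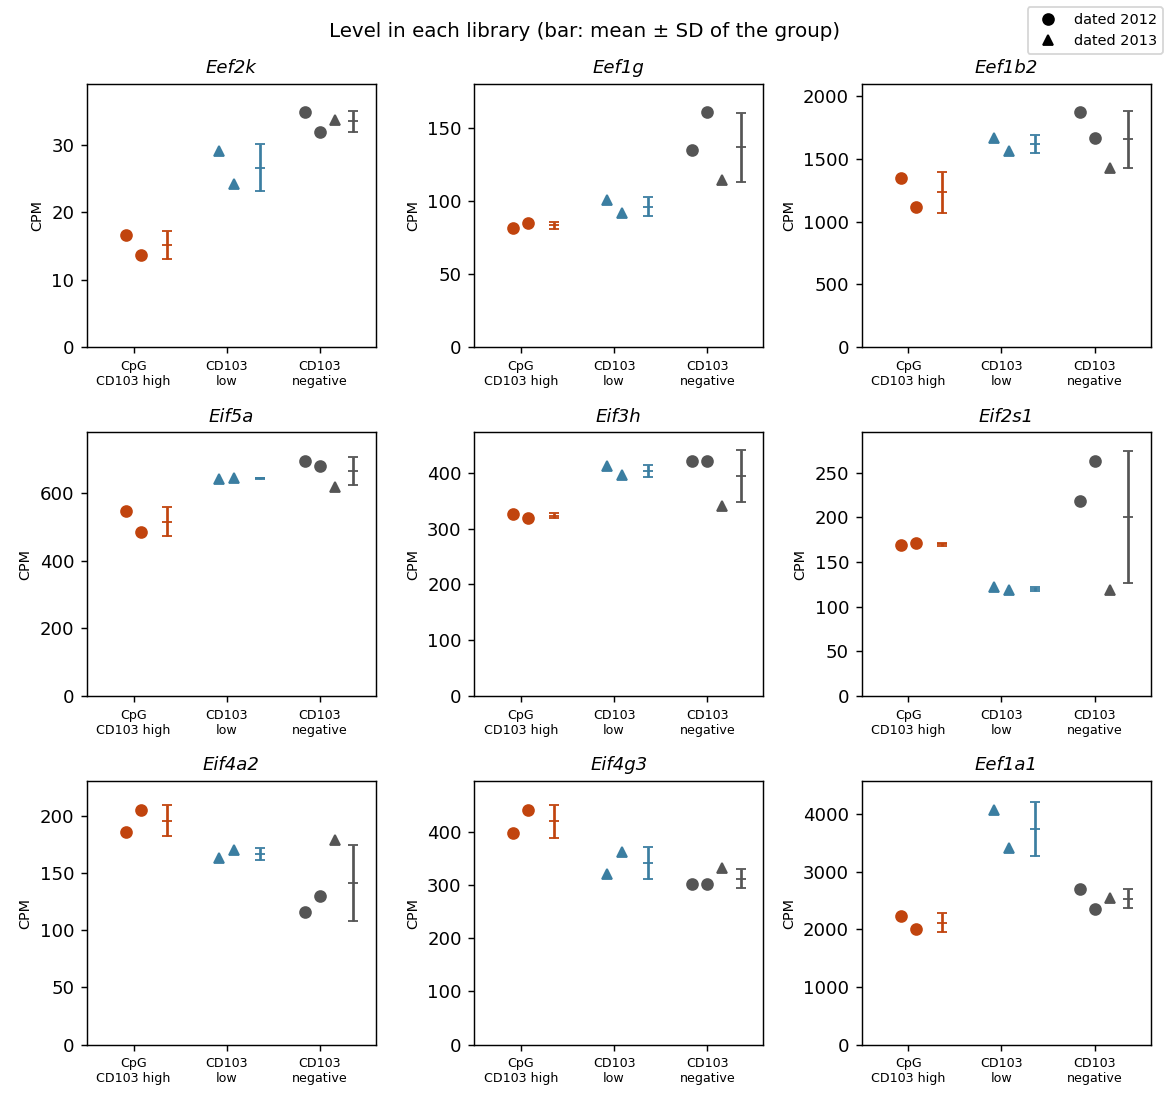
CPM of 9 genes in each library, with CpG CD103 high on the left, CD103 low in the middle and CD103 negative on the right, circles for libraries dated 2012, triangles for 2013, and bars for the group mean and SD. Both CpG CD103 high libraries lie below all 5 untreated ones for Eef2k, Eef1g, Eef1b2, Eif5a, Eif3h and Eef1a1 and above them for Eif4a2 and Eif4g3, while Eif2s1 divides the CD103 negative libraries by date.

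Of the modifying enzymes and other genes that carry a factor name, 2 of 8 tested were lower (25.0%, against 11.8% of all genes). None was higher, and the median was -0.47. Eef2k, which encodes the kinase that phosphorylates and inhibits eEF2, showed the largest fall of all 60 genes. It had 16.6 and 13.7 CPM in CpG CD103 high, 29.1 and 24.1 CPM in CD103 low, and 34.9, 31.9 and 33.6 CPM in CD103 negative. The 3 groups did not overlap. Relative to CD103 negative, Eef2k fell by 54.6% in CpG CD103 high. That log2 fold change was -1.14 (SE 0.17, adjusted p = 0.00111), with a call in all 16 alternative fits of this contrast. Eef2k was not called in CD103 low against CD103 negative (-0.34, adjusted p = 0.764) or CpG CD103 high against CD103 low (-0.80, adjusted p = 0.0906). Eef1e1, which encodes a subunit of the multi-tRNA-synthetase complex, had 19.8 and 14.6 CPM in CpG CD103 high, 23.6 and 27.4 CPM in CD103 low, and 24.6, 28.2 and 27.7 CPM in CD103 negative. Eef1e1 was called in the main fit but not with DESeq2 (adjusted p = 0.178) or the length and GC correction (0.163). It lay below all 5 untreated libraries (-0.62, SE 0.18, adjusted p = 0.0321), but the call was lost without CpG CD103 high replicate 2 (adjusted p = 0.170), CD103 negative replicate 1 (0.0573) or 2 (0.153), or CD103 low replicate 1 (0.0518) or 2 (0.0517).

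The genes for methyltransferases of eEF1A and eEF2 were not called. Eef1akmt1, Eef1akmt2, Eef1aknmt and Eef2kmt had log2 fold changes of -0.57, -0.48, -0.46 and -0.23, with adjusted p-values between 0.0601 and 0.288. Eif6, which keeps the ribosomal subunits apart, and Eif1ad, a nuclear protein with an eIF1A-like domain, had -0.15 and -0.14.

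Promoter windows from RefSeq (build GRCm38.p6), running from 250 bases before to 50 after an annotated start, were at hand for 49 of the 65 genes. The E-box CACGTG, a palindrome bound by Myc, USF and related factors, was searched because Myc is a known regulator of translation factor genes. It occurred in 13 of the 49 genes (26.5%), against 12.1% of the 8576 tested genes with a window and 8.09% of all 27025 genes with one. By call, the match was found in 3 of 12 genes lower in CpG CD103 high, in 10 of 31 tested without a call and in 0 of 3 higher. The E-box is shown in capitals for the 3 lower genes and for the uncalled genes Eif3k and Eif4g1, 5′ to 3′ on the strand of the gene. Their positions, in the order shown, are chr7:120842774-120842831 (plus strand), chr10:81176562-81176619 (plus), chr11:69921429-69921486 (minus), chr7:28981901-28981958 (minus) and chr16:20672647-20672704 (plus).
Eef2k: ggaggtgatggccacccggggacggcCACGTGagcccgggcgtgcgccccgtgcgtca
Eef2: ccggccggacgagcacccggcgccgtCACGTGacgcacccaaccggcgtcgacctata
Eif5a: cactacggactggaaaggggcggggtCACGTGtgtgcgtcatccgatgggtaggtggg
Eif3k: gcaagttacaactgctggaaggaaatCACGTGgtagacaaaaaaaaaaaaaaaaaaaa
Eif4g1: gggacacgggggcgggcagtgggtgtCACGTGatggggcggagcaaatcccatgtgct
In Eef2k and Eef2 the E-box began at positions -31 and -43 from the annotated start. Other short elements, searched on both strands, were less frequent: the ETS element CCGGAAGT was in 8 of 49 genes (16.3%) against 10.2% of tested genes, the interferon-type GAS element TTCNNNGAA in 5 (10.2%) against 8.13%, and the cAMP response element TGACGTCA in 1, Eef2 (2.04%), against 3.67%. A match describes the letters of the window and not binding.

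CD103 low cells were compared with CD103 negative cells to ask whether CD103 level without treatment went with a change. None of the 60 genes was called, and 15 of all 10863 genes were (0.138%). At an unadjusted p under 0.05 there were 5 genes of the 60 and 797 of all genes. DESeq2 called 1. The median log2 fold change was -0.05 over the 60 genes and 0.01 over all genes. Of the 60 fitted values, 34 were below 0 (56.7%, against 47.6% of all genes). Because CD103 negative replicate 3 is the sole CD103 negative library of the later date, this contrast rested in effect on that library.

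Eef1a1 had the largest rise in this contrast. Its 4079 and 3407 CPM in CD103 low lay above the 2703, 2361 and 2539 CPM in CD103 negative, at a log2 fold change of 0.56 (SE 0.13, adjusted p = 0.206). It was called with DESeq2 (adjusted p = 0.0311), on the libraries of 2013 alone (0.00531) and in the fit that dropped both the date term and CD103 negative replicate 3 (0.0148), with adjusted p of up to 0.767 among the alternatives. Reads from the many processed pseudogenes of Eef1a1 may be counted with it or lost, which the sources used here do not state. Eif4e3 had the largest fall, -0.58 (SE 0.20, adjusted p = 0.521), and Eef2kmt followed at -0.45 (SE 0.18, adjusted p = 0.598). In 4 genes (6.67%, against 16.2% of all genes) both CD103 low libraries exceeded all 3 CD103 negative ones, namely Eef1a1, Eif3f, Eif3k and Eif4e2. In 16 genes (26.7%, against 12.2% of all genes) they lay below, among them Eef2k, Eef1g, Eif4b and Eif3b. Leaving out CD103 negative replicate 3 together with the date term gave 13 calls, with 9.61% of all genes called, where every CD103 low library is of 2013 and every CD103 negative one of 2012.

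CpG CD103 high was then set directly against CD103 low. This comparison crossed the dates and was the difference of the preceding contrasts. Here 4 of the 60 genes were called (6.67%, against 6.22% of all genes), 1 higher (1.67%, against 3.44%) and 3 lower (5.0%, against 2.78%). The median was -0.26 over the 60 genes and -0.02 over all genes, with 41 of 60 below 0 (68.3%, against 51.9% of all genes). Eif4a2 was higher, at 186 and 205 CPM in CpG CD103 high against 163 and 170.1 CPM in CD103 low, with a date-adjusted log2 fold change of 0.78 (SE 0.15, adjusted p = 0.0181) and 0.23 (adjusted p = 0.497) without the date term. Eef1a1 was lower, at 2230.0 and 2003 CPM in CpG CD103 high against 4079 and 3407 CPM in CD103 low, with a log2 fold change of -0.82 (SE 0.17, adjusted p = 0.0226). Eef1b2 and Eif3h were lower too, at -0.70 (SE 0.17, adjusted p = 0.0368) and -0.63 (SE 0.13, adjusted p = 0.0198). Neither was called without the date term, at -0.39 (adjusted p = 0.136) and -0.32 (0.15), or with the length and GC correction, at -0.56 (0.0664) and -0.40 (0.0968). None of the 60 was called without CD103 negative replicate 1 or without CD103 low replicate 1, where 2.63% and 1.03% of all genes were called. Without CD103 low replicate 2, 1 was called (1.49% of all genes), and 16 were called in the fit that dropped both the date term and CD103 negative replicate 3 (15.5% of all genes).

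By role, the medians of this comparison ran from -0.56 for elongation factors, -0.37 for modifying enzymes and others and -0.30 for eIF3 to 0.03 for the eIF4 group and 0.38 for the eIF4E-binding proteins. The ratio of Eef1a1 to Eef1g per kilobase, the carrier over a subunit of its exchange factor and a pairing chosen after the values were seen, was 23.9 and 20.6 in CpG CD103 high, 35.5 and 32.5 in CD103 low, and 17.6, 12.8 and 19.4 in CD103 negative. Eif1a over Eif1ax, the gene pair for eIF1A, was 0.630 and 0.641 in CpG CD103 high, 0.411 and 0.338 in CD103 low, and 0.388, 0.343 and 0.415 in CD103 negative. No test was made of any ratio given here.

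Genes that act on these factors but carry other names gave a mixed result. Of 46 such translation control genes 44 were tested, and in CpG CD103 high against CD103 negative 8 were higher (18.2%, against 14.5% of all genes) and 10 lower (22.7%, against 11.8%), with a median of 0.01. Pabpc1, the poly(A)-binding protein that contacts eIF4G, had 1301 and 1279 CPM in CpG CD103 high, 1869 and 1855 CPM in CD103 low, and 2094, 2011 and 1762 CPM in CD103 negative (-0.67, SE 0.07, adjusted p = 0.000240). It was also lower than in CD103 low (-0.75, SE 0.12, adjusted p = 0.00754), though not called without CD103 low replicate 1 (adjusted p = 0.0595). Pdcd4, an inhibitor of eIF4A, was lower at -0.79 (SE 0.14, adjusted p = 0.00360), as were the termination factor gene Gspt1 at -0.47 (SE 0.09, adjusted p = 0.00429) and the recycling factor gene Abce1 at -0.48 (SE 0.09, adjusted p = 0.00453). Gspt1 was not called without the date term (adjusted p = 0.0782). Impact, which restrains the eIF2 kinase GCN2, divided the CD103 negative libraries by date: it had 33.3 and 32.1 CPM in CpG CD103 high, 25.2 and 23.0 CPM in CD103 low, and 17.6, 17.3 and 33.0 CPM in CD103 negative. It was higher against CD103 negative at 0.91 (SE 0.14, adjusted p = 0.00154) with the date term and not called without it (0.53, adjusted p = 0.206), and its date contrast was 0.92 (SE 0.17, adjusted p = 0.0188). Against CD103 low the date-adjusted change was 1.36 (SE 0.22, adjusted p = 0.00856), and without the date term it was 0.44 (adjusted p = 0.401). Mtor, the kinase that releases eIF4E from its binding proteins, was higher against CD103 negative at 0.43 (SE 0.09, adjusted p = 0.00687). Dropping the date ended that call (0.33, adjusted p = 0.0836), as did DESeq2, narrowly, and the length and GC correction (0.20, adjusted p = 0.144). Against CD103 low Mtor was higher at 0.61 (SE 0.14, adjusted p = 0.0355), a call lost in 9 of 15 alternative fits. Of the 44 translation control genes tested none was called in CD103 low against CD103 negative. All 11 mitochondrial translation factor genes tested were without a call in the 3 comparisons, with a median of 0.15 in CpG CD103 high against CD103 negative.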

How the data were processed

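Each library has a deposited file of raw counts per gene, in whole numbers without normalization, per the file headers and values. The submitters' processing notes name CASAVA, Subread 1.4.6, featureCounts and the build mm10 but not what each did. No source used here states the annotation release, the use of strand or the handling of reads matching several places, so overlapping antisense genes and near-identical copies could not be told apart. A table of the whole series with 7 columns that match no label was not used.

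Of 27179 Entrez identifiers 25275 (93.0%) were paired with a symbol through the RefSeq gene table, and the unmatched ones held 0.533% of counts. The design text calls the samples biological replicates. The counts were fitted with edgeR 4.0.16 in R 4.3.3 (filterByExpr, TMM scaling, glmQLFit and glmQLFTest) with group and date as terms over all 7 libraries, on 3 residual degrees of freedom. This left 10863 genes, called at an adjusted p under 0.05. The SE is the size of the log2 fold change over the square root of F. Because the date is in the model, CpG CD103 high was set against replicates 1 and 2 of CD103 negative, and CD103 low against its replicate 3.

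The genes named are those called in any comparison, the 8 of highest level per kilobase, the extremes of each complex, the untested ones and up to 6 called genes of each other list. The members, lists and ratios were chosen with earlier results of these data known. Alternatives were RLE scaling, no filter or a stricter one (5 CPM in 2 libraries), DESeq2 1.42.0, limma 3.58.1 voom, no date term, a replicate block, each date alone, each library left out and, chosen after seeing the data, a correction for length and GC content. One marker of the B-cell list is not reported here and was left out of its sum.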

Additional observations from a re-analysis of the deposited data

How the results depend on the processing

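Alternatives were run for the counts, the medians, each call of a member and the 6 other genes named with an adjusted p, and none of these reversed its direction. The ratios, shares of counts and uncalled members other than Eef1a1 were not run. In CpG CD103 high against CD103 negative 23 genes were called, against 15 with DESeq2 and 12 without the date term (1 higher, 11 lower), and 12 to 18 when 1 library was left out, with the lowest counts of 12 without CD103 negative replicate 1 and 13 without CpG CD103 high replicate 2. The fits that left out 1 library and kept the date term each called a smaller share of all genes than the main fit. Leaving out CD103 negative replicate 3 meant dropping the date term too, and gave 23, with 26.6% of all genes called. The median was -0.24 to -0.16 over those fits and -0.185 with the length and GC correction. Eef1g, Eef2k and Eif5a kept their call in all 16 alternatives, while the other 20 genes lost it in at least 1. In CD103 low against CD103 negative DESeq2, the replicate block and the later date alone each called 1 gene, Eef1a1, and fits without 1 library called 0 with medians of -0.074 to -0.013, except that 13 genes were called with a median of -0.135 when replicate 3 of CD103 negative and the date were dropped. In CpG CD103 high against CD103 low 1 gene was called with no filter and 0 to 5 when 1 library was left out, against 16 once replicate 3 of CD103 negative and the date were dropped, and the median was -0.289 with no filter, -0.106 without the date term, -0.283 with the replicate block, -0.175 with the length and GC correction, -0.269 to -0.195 when 1 library was left out, and -0.087 in the fit that dropped replicate 3 of CD103 negative and the date. With no filter, 1.60% of all genes were called in CpG CD103 high against CD103 low. With DESeq2, 0.304% of all genes were called in CD103 low against CD103 negative. Causes of the changes between fits were not tested.

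Whether the replicate numbers pair the libraries could not be settled, since each group gives 1 difference between its replicates 1 and 2. Over genes these differences correlated at 0.168 for CpG CD103 high with CD103 negative. The values were -0.006 for CpG CD103 high with CD103 low and 0.002 for CD103 low with CD103 negative. With the replicate block 25, 1 and 5 genes were called in CpG CD103 high against CD103 negative, CD103 low against CD103 negative and CpG CD103 high against CD103 low. Of all genes, that fit called 27.7%, 0.0921% and 7.85%, in the same order. With 2 or 3 libraries a group, changes near the smallest ones called, such as that of Eef2, could not be told firmly from the spread between libraries.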
